A study of Homo sapiens with 9 samples.

Results

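The 32 genes described here are classical p53 target and DNA damage response genes, taken by symbol from a list of names that used no measured value of this series. They are 32 of the 58735 genes in the count table. Of them, 30 had enough counts to be tested among 14975 genes, and TNFRSF10C and SPATA18 were too low. RNA-seq was done on THP-1 cells, an established human acute myeloid leukaemia line of monocytic type that carries the MLL-AF9 fusion. All cells were given lentivirus made in 293T cells by spinoculation, were put under puromycin 24 hours later, and were harvested 48 hours after spinoculation. The 3 groups of 3 libraries differ in the shRNA that the virus carried: a non-targeting one (SHX2, called control here), NFATC2 construct 1 (shRNA-143) or NFATC2 construct 2 (shRNA-146). The control therefore shares the transduction and the drug selection with both knockdown groups, there is no untransduced group, and all groups come from 1 cell line. NFATC2 encodes a calcium-regulated transcription factor of the NFAT family. The comparison asks whether p53-regulated genes differ in level when NFATC2 is lowered.

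p53 is a transcription factor that is held low by its own target MDM2 and is stabilised by the ATM and ATR kinases when DNA is damaged. It binds paired half-sites in DNA and raises genes that stop the cell cycle, repair DNA, alter metabolism or start apoptosis. Many of the genes below also have other activators, such as ATF4 in the integrated stress response.

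The half-site is the sequence that p53 binds, and the promoter stretches of members that hold a match to it are shown first. RefSeq promoters of GRCh38.p14, each covering 250 bases before to 50 bases after a gene's start, were given for 24 of the 32 members, in 35 promoters. The published p53 half-site consensus, 10 bases long and its own reverse complement, so that 1 search covers both strands, was found in 7 of these 35 promoters (20.0%), against 6.63% of all 35116 promoters of that length and 10.9% of the 55 promoters of other p53 targets. The 7 stretches are given 5′ to 3′ on the strand of the gene, with the half-site in capitals.

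PLK2, minus strand, chr5:58460199-58460228: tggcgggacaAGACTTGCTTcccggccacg
SESN1, minus strand, chr6:109009018-109009047: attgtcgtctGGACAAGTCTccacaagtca
FAS, plus strand, chr10:88991299-88991328: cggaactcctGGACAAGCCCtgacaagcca
DDB2, plus strand, chr11:47214975-47215003: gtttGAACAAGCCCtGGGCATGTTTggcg
RPS27L, minus strand, chr15:63157517-63157546: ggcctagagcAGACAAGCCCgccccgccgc
AEN, plus strand, chr15:88621296-88621325: agtcggagccGGGCTTGCCCgggcatgtgg
FDXR, minus strand, chr17:74872986-74873015: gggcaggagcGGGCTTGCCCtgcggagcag

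DDB2 was the member with 2 half-sites next to each other, 1 base apart, a full p53 site by the consensus. Such a pair, with 0 to 13 bases between the half-sites, was in 2.86% of the members' promoters in 0.0285% of all promoters, and in 0 of the 55 promoters of other p53 targets. The half-sites of the other 6 members lay 11 bases (FDXR) to 132 bases (PLK2) before the start. The promoters of POLH, TRIAP1, MDM2 and GDF15 held no match to these letters in this window. A match is a match of letters and not a measured binding site.

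Library totals ran from 40047459 to 44669709 counts, and 18485 to 21723 genes had a count. NFATC2 stood at 12.7, 27.6 and 27.4 CPM (counts scaled to a common library size after TMM normalisation) in control libraries 1, 2 and 3, at 1.49, 7.40 and 6.95 for shRNA-143 and at 2.59, 6.71 and 9.43 for shRNA-146. Every knockdown library was thus below every control library. The libraries numbered 1 stood apart from those numbered 2 and 3 in all 3 groups. Library 1 was the highest of its group in all 3 groups for 25.9% of all genes tested, and the lowest for 28.4%. The first principal component of the 9 libraries held 58.1% of the variance. Results are therefore given for all 9 libraries without and with the replicate number as a block, a term that takes out what libraries of the same number share, and for the 6 libraries numbered 2 and 3. The 10 monocytic markers were all present, with a summed level of 815 to 1000 TPM (counts scaled for gene length and library size) in control, 938 to 1270 with shRNA-143 and 880 to 1310 with shRNA-146. Epithelial and kidney markers, which would mark 293T cells, summed to 0.934 to 1.76 TPM with KRT19 and PAX2 at 0, T-cell markers to at most 0.634 TPM with CD3D, CD3E and CD2 at 0, B-cell markers to at most 4.10 TPM with MS4A1 at 0, and erythroid markers to at most 0.257 TPM.

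The members spanned more than 3 orders of magnitude in level per length, as the plot of levels shows. CCNG1 had the highest mean over the 9 libraries, 138 TPM, followed by TRIAP1 at 84.6, NINJ1 at 41.3, MDM2 at 25.9 and AEN at 21.8 TPM. Next came members at 11.4 to 17.6 TPM, namely PPM1D, FBXO22, SESN1, ASCC3, RPS27L, POLH and SUSD6. Length here counts all annotated exon bases of a gene, such as 9127 for RPS27L, so this order depends on the annotation. DDB2, TP53I3, TNFRSF10B, GADD45A, ACER2, FDXR, ANKRA2, PLK3, ZMAT3, MDM4, GDF15, CMBL and XPC lay between 1.51 and 5.42 TPM. The lowest were TP53INP1, FAS, PHLDA3, TIGAR, PLK2, TNFRSF10C and SPATA18, from 0.648 down to 0.0356 TPM. The messages of the p53 feedback regulators and of the arrest gene CCNG1 were thus well above the detection floor in these cells. Those of the death receptor FAS and the decoy receptor TNFRSF10C were near it, while the death receptor TNFRSF10B lay in the same range as MDM4.

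**Figure D1:**
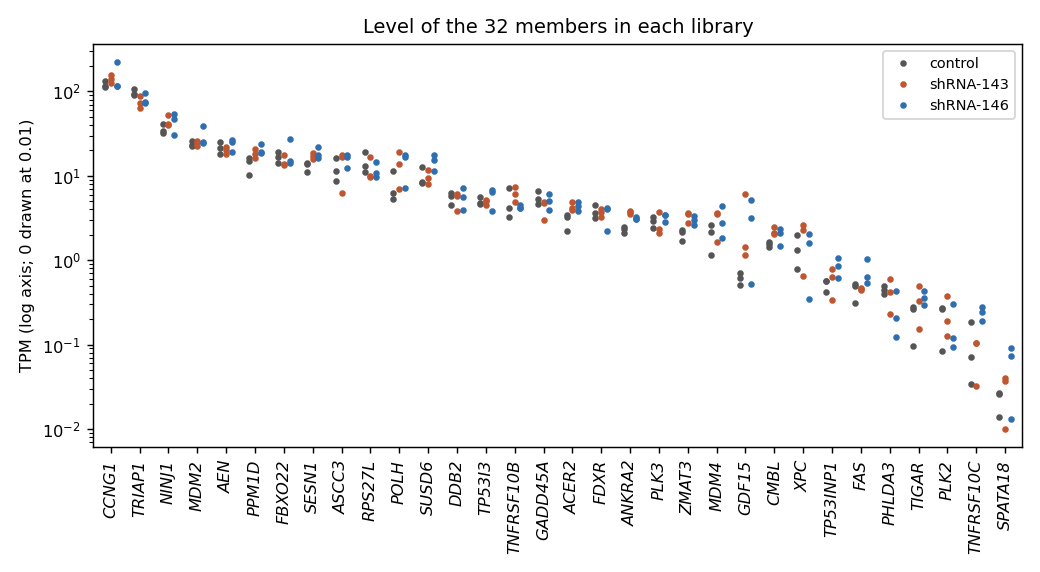
Level of each of the 32 members in each of the 9 libraries, in TPM on a log axis, with libraries coloured by group and a value of 0 drawn at 0.01. CCNG1 and TRIAP1 lie highest, SPATA18 and TNFRSF10C lowest, and for most members the 3 groups lie on top of each other.

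None of the members passed the test in the fit without the block, and 2 did with it. In the fit of all 9 libraries without the block, edgeR's quasi-likelihood test with Benjamini-Hochberg adjustment over all genes called 0 of 30 members at an adjusted p of 0.05 with shRNA-143, with shRNA-146, for the mean of both against control, and for shRNA-146 against shRNA-143. Few genes of any kind passed there: 0.0467% of all genes tested with shRNA-143, 0.0334% with shRNA-146, 0.0334% for the mean and 0.0467% between the shRNAs. NFATC2 itself missed the threshold there with shRNA-143, with shRNA-146 and for the mean. Its log2 differences were -2.09, -1.85 and -1.97 (adjusted p = 0.497, 0.464 and 0.325). With the block NFATC2 passed in each (adjusted p = 0.00168, 0.00435 and 0.000575). A count of 0 without the block therefore says little about the members. An unadjusted p under 0.05 was reached by 2, 1, 1 and 1 of 30 members, against 6.8%, 8.81%, 9.34% and 3.75% of all genes, and DESeq2 and limma-voom without the block also called 0 members in each comparison. Here as in all bulk RNA data, fewer cells expressing a gene and less RNA per cell cannot be told apart.

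With the replicate block the same test called 3.17% of all genes with shRNA-143, 4.42% with shRNA-146, 5.74% for the mean and 1.2% between the shRNAs. Of the members it called 0 of 30 members with either shRNA alone, 2 of 30 (6.67%) for the mean, POLH up and TRIAP1 down, and 0 between the shRNAs. The members' share for the mean is thus near that of all genes. An unadjusted p under 0.05 was reached by 7, 7, 8 and 3 of 30 members, against 20.7%, 23.5%, 25.6% and 10.4% of all genes. The members' median log2 difference was -0.001 with shRNA-143, 0.032 with shRNA-146 and 0.050 for the mean, beside 0.004, 0.022 and 0.008 over all genes, and 16 of 30 members were above 0 for the mean. In the 6 libraries numbered 2 and 3, without the block, 4 of 30 members were called for the mean against 10.1% of all genes: POLH and GDF15 up, TRIAP1 and RPS27L down. DESeq2 with the block called 5 of 30 for the mean, these 4 and ZMAT3. It also called more genes of any kind than edgeR with the block, 1001 against 474 with shRNA-143 and 1400 against 662 with shRNA-146. Below, a gene is said to pass, rise or fall by edgeR on all 9 libraries unless another fit is named.

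The intervals say how large a change these data leave room for. In the blocked fit of the mean against control, the 95% confidence interval lay wholly within a 2-fold change either way for 26 of 30 members (86.7%, and 74.4% of all genes). The exceptions were GDF15, PHLDA3, PLK2 and TIGAR, of which all but GDF15 averaged under 1 TPM. Without the block, it did so for 18 of 30 members (60% against 56.6% of all genes).

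**Figure D2:**
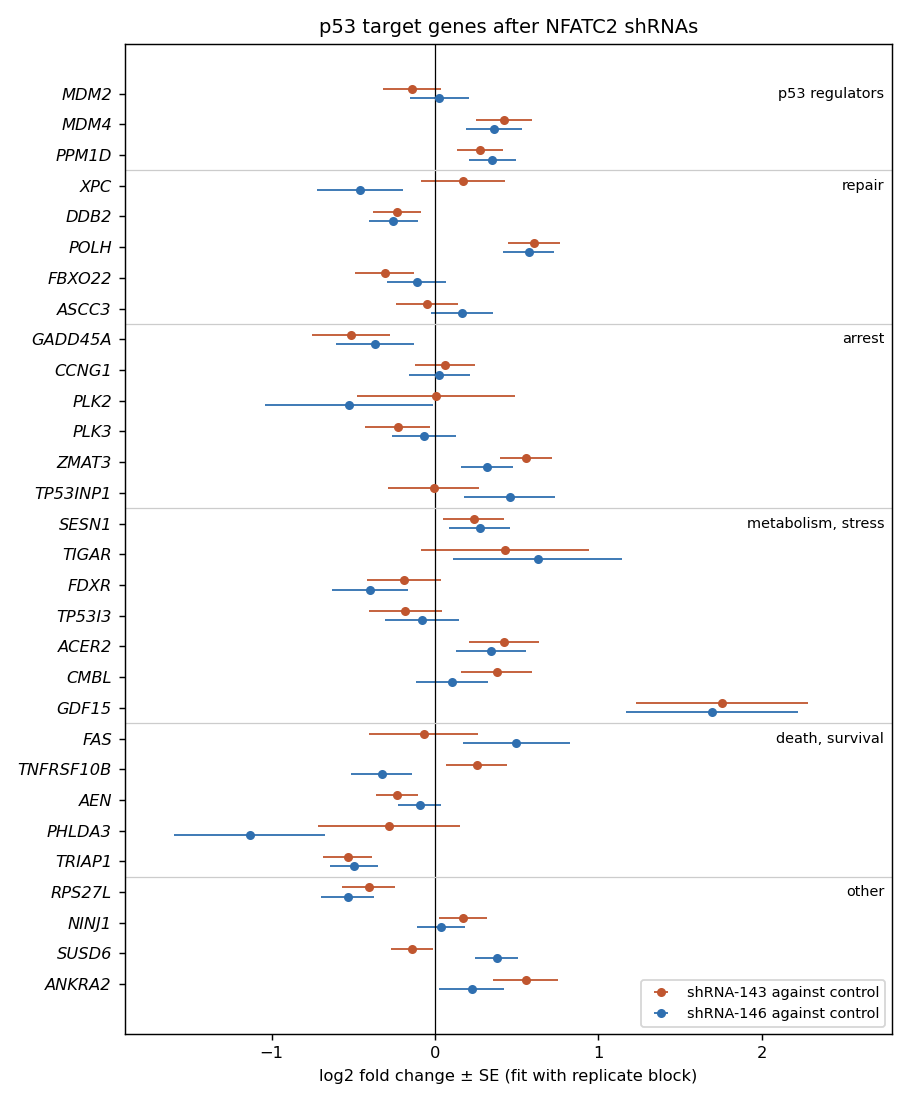
Log2 difference from control with its SE for the 30 tested members, ordered by role, for shRNA-143 and shRNA-146 in the fit with the replicate block. Most members lie within 0.5 of 0 for both shRNAs, and GDF15 stands out at 1.76 and 1.70 with wide error bars.

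None of the 3 feedback regulators of p53 passed. MDM2, the ubiquitin ligase that degrades p53 and is itself a p53 target, stood at 130.5, 118.5 and 125.5 CPM in control libraries 1 to 3, at 136.3, 107.5 and 101.5 in shRNA-143 libraries and 202.4, 106.3 and 94.0 in shRNA-146 libraries. The groups overlapped, and the highest value was that of library 1 of shRNA-146. The log2 difference of the mean was -0.06 ± 0.16 (SE) with the block, adjusted p = 0.854, with a 95% interval from -0.40 to 0.29. MDM4, the MDM2 relative that binds and inhibits p53, ran from 5.36 to 14.1 CPM and PPM1D, the phosphatase that switches off damage signalling, from 21.5 to 47.1 CPM. In the blocked fit of the mean MDM4 was at 0.39 ± 0.15 and PPM1D at 0.31 ± 0.12, with adjusted p-values of 0.135 and 0.144, so neither passed, although PPM1D was higher than the same-numbered control in 3 of 3 pairs with each shRNA.

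Among the 5 members grouped here under repair, POLH was the one that rose with the block. POLH encodes DNA polymerase eta, which copies past ultraviolet lesions, and is at chromosome 6, positions 43576150 to 43615660 (hg38, plus strand). Its level was 7.94, 13.9 and 9.20 CPM in the control libraries, 10.5, 21.2 and 16.2 with shRNA-143 and 9.87, 19.9 and 17.1 with shRNA-146. The groups overlapped, with library 1 the lowest of each, but each knockdown library was above the control of its own number. For the mean, the log2 difference was 0.59 ± 0.14 with the block, adjusted p = 0.0364, a 1.51-fold higher level, and 0.61 ± 0.31 without it, adjusted p = 0.600. Each shRNA alone gave 0.61 and 0.57 with the block, adjusted p = 0.0651 and 0.0655. In the 6 libraries numbered 2 and 3 the difference was 0.69 ± 0.19, adjusted p = 0.0451, without the block. Leaving out 1 library at a time with the block gave 0.46 to 0.70, and the call held without shRNA-146 library 1 (adjusted p = 0.00769) or library 3 (0.0452), while the other 7 omissions gave adjusted p-values of 0.0516 to 0.2315.

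The other members of the repair group did not pass, although FBXO22 was called for the mean in the 6 libraries numbered 2 and 3 with the block. FBXO22, the substrate receptor of a ubiquitin ligase, is placed in this group by the list used here rather than by a known repair role. It had the highest level per length of the group. FBXO22 stood at 94.8, 58.3 and 81.3 CPM in control, at 88.9, 50.3 and 54.6 in shRNA-143 libraries and 128.0, 53.3 and 51.7 in shRNA-146 libraries. Its groups overlapped, library 1 was highest in each, and the blocked log2 difference of the mean was -0.21 ± 0.16, adjusted p = 0.425. The damage sensors of nucleotide excision repair were at -0.24 ± 0.13 (DDB2, 7.49 to 11.7 CPM) and -0.14 ± 0.22 (XPC, 0.660 to 3.94 CPM), and DDB2 was below its same-numbered control in all 6 pairs without passing (adjusted p = 0.255). ASCC3, a helicase that opens DNA for alkylation repair, ran from 31.2 to 65.7 CPM and was at 0.06 ± 0.16. XPC counts are uncertain where a gene on the other strand covers 23.8% of its exons, and the same holds for 16.2% of those of FBXO22.

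In edgeR none of the 6 arrest genes passed in any of the 4 comparisons of the 9 libraries, with or without the block. DESeq2 with the block called ZMAT3. CCNG1, cyclin G1, was the most abundant member and stood at 173.8, 124.6 and 145.8 CPM in control, at 202.7, 124.3 and 144.9 in shRNA-143 libraries and 270.0, 113.0 and 106.2 in shRNA-146 libraries. Library 1 was the highest of each group and the groups overlapped. Its blocked log2 difference of the mean was 0.04 ± 0.16, with a 95% interval from -0.31 to 0.40. ZMAT3, an RNA-binding zinc finger protein, was above its same-numbered control in all 6 pairs, at 8.64, 7.48 and 6.72 CPM in control, 14.95, 10.6 and 8.81 with shRNA-143, and 12.6, 9.04 and 7.36 with shRNA-146. All 3 shRNA-143 libraries were above all controls, and the blocked difference of the mean was 0.44 ± 0.14, adjusted p = 0.0863, in edgeR. DESeq2 with the block gave adjusted p = 0.0341 with shRNA-143 and 0.0470 for the mean. GADD45A, which binds growth-regulating proteins after damage, was below its same-numbered control in all 6 pairs, at 3.92 to 4.70 CPM in control, 2.10 to 4.23 with shRNA-143 and 3.20 to 3.72 with shRNA-146 (-0.44 ± 0.20 for the mean, adjusted p = 0.198). The polo-like kinases PLK2 (0.163 to 0.560 CPM) and PLK3 (2.73 to 4.23 CPM) were at -0.26 ± 0.44 and -0.15 ± 0.17, and TP53INP1, a p53-inducible nuclear protein, at 0.22 ± 0.25 (0.634 to 2.39 CPM).

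Of the 7 metabolism and stress genes, GDF15 had the largest difference of all members. GDF15 is a secreted stress cytokine of the TGF-beta family that both p53 and the ATF4 pathway are known to raise, and it was singled out here after its values were seen. It stood at 0.539, 0.499 and 0.435 CPM in control, at 1.03, 4.0 and 1.005 in shRNA-143 libraries and 0.432, 3.38 and 1.92 in shRNA-146 libraries, from counts of 16 to 193 reads. All shRNA-143 libraries were above all controls, whereas with shRNA-146 library 1 was below them and the others above. The log2 difference of the mean was 2.0 ± 0.71 without the block, adjusted p = 0.445, and 1.73 ± 0.48 with it, a 3.31-fold higher level with an adjusted p of 0.0603. It was 2.46 ± 0.59, adjusted p = 0.0345, in the 6 libraries numbered 2 and 3 without the block. Leaving out 1 library at a time with the block moved it from 1.07 to 2.36, and it passed when shRNA-146 library 1 was left out (2.03, adjusted p = 0.00627) and in none of the other 8 omissions. In the authors' deposited table GDF15 had the lowest adjusted p of the 32 members in both comparisons, 0.0710 with shRNA-143 and 0.217 with shRNA-146, and 0 members were under 0.05.

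SESN1, sestrin 1, which restrains mTORC1, had the highest level per length of the metabolic members, at 24.0, 25.1 and 29.3 CPM in control, 33.8, 27.5 and 32.1 with shRNA-143 and 44.6, 26.2 and 26.5 with shRNA-146. The groups overlapped, and its blocked difference of the mean was 0.26 ± 0.16, adjusted p = 0.348. ACER2, an alkaline ceramidase, was above its same-numbered control in all 6 pairs (2.04 to 4.67 CPM, 0.38 ± 0.19, adjusted p = 0.232). The others were FDXR, the mitochondrial ferredoxin reductase, at -0.29 ± 0.20, TP53I3, a quinone oxidoreductase, at -0.13 ± 0.19, CMBL, a hydrolase, at 0.24 ± 0.19, and TIGAR, which lowers glycolytic flux, at 0.53 ± 0.45. TIGAR had 6 to 30 counts per library, and 42.6% of its exon bases are shared with another annotated gene on its strand, so its value is uncertain.

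TRIAP1 was the one apoptosis gene that passed, and it fell. TRIAP1 encodes a small mitochondrial lipid-transfer protein that restrains apoptosis, and lies at chromosome 12, positions 120443961 to 120446412 (minus strand). It stood at 65.3, 44.5 and 55.9 CPM in control, at 53.2, 32.8 and 31.05 in shRNA-143 libraries and 54.9, 34.2 and 31.1 in shRNA-146 libraries. Each knockdown library was below the control of its own number, while the groups overlapped, with library 1 the highest of each. The log2 difference of the mean was -0.52 ± 0.13 with the block, adjusted p = 0.0421, and -0.48 ± 0.25 without it, adjusted p = 0.607. In the 6 libraries numbered 2 and 3, without the block, it was -0.63 ± 0.13 for the mean, adjusted p = 0.0164, and the call was also made for each shRNA alone. With 1 library left out and the block, the call was made when shRNA-146 library 1 was left out (adjusted p = 0.0102), and the other 8 omissions gave adjusted p-values of 0.0517 to 0.274. TRIAP1 is short, with 1442 exon bases, and the median log2 difference of all genes in the shortest of 5 equal length classes was -0.224 in the same fit, against 0.185 in the longest class. With offsets for gene length beside the block, TRIAP1 was at -0.29 ± 0.12, adjusted p = 0.184, and POLH at 0.65, adjusted p = 0.0295.

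The death receptors and other apoptosis genes did not pass. TNFRSF10B, the TRAIL receptor DR5, ran from 6.34 to 16.02 CPM with library 1 highest in each group, and FAS from 0.544 to 1.75 CPM. Their blocked differences of the mean were -0.04 ± 0.16 and 0.21 ± 0.29. AEN, an apoptosis-enhancing nuclease, ran from 40.6 to 53.2 CPM (-0.16 ± 0.11). PHLDA3, which competes with AKT for the membrane, was at 0.428 to 0.646 CPM in control and 0.152 to 0.397 CPM with shRNA-146, where all 3 libraries were below all controls (-1.14 ± 0.46, adjusted p = 0.170). The decoy TRAIL receptor TNFRSF10C had 1 to 8 counts per library and SPATA18, linked to mitochondrial quality control, 0 to 7, too few for a test.

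The 4 members of other or less settled function held 1 gene with a low value in both knockdown groups. RPS27L, a ribosomal protein S27-like gene known to be induced by p53, stood at 73.5, 34.7 and 49.3 CPM in control, at 64.7, 28.9 and 29.3 in shRNA-143 libraries and 52.1, 30.6 and 26.2 in shRNA-146 libraries. Each knockdown library was below its same-numbered control and library 1 was highest in each group. The blocked difference of the mean was -0.47 ± 0.14, adjusted p = 0.0674, and in the 6 libraries numbered 2 and 3 it was -0.54 ± 0.15 without the block, adjusted p = 0.0419. RPS27L resembles RPS27 and its processed copies closely, so its counts are uncertain, and it too was described in full after its values were seen. NINJ1, which drives plasma membrane rupture in dying cells, had the highest level per length of these 4 members, with 38.0, 36.9 and 35.3 CPM in control, 44.8, 43.5 and 36.0 with shRNA-143 and 32.2, 45.4 and 36.1 with shRNA-146. The rank of NINJ1 rests on annotated exon lengths, 2648 bases for NINJ1 and 9127 for RPS27L, whose CPM ranges overlapped. The groups of NINJ1 overlapped (0.10 ± 0.13, adjusted p = 0.651). ANKRA2, an ankyrin repeat protein, was above its same-numbered control in all 6 pairs (2.11 to 4.31 CPM, 0.39 ± 0.17, adjusted p = 0.190).

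**Figure D3:**
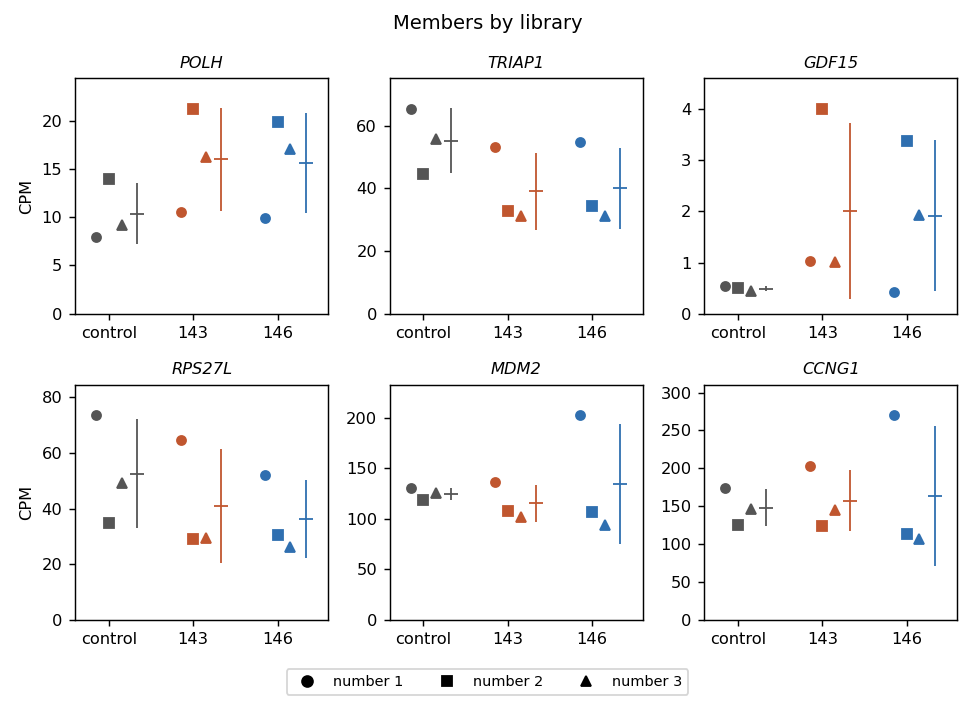
CPM of POLH, TRIAP1, GDF15, RPS27L, MDM2 and CCNG1 in each library, from 0, with a marker shape for each library number and the mean ± SD of each group of 3. POLH is higher and TRIAP1 lower in each knockdown library than in the control of the same number, and MDM2 and CCNG1 are highest in library 1 of every group.

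No member passed between the 2 shRNAs in edgeR on all 9 libraries, and 1, SUSD6, was called with the block in DESeq2 and in the 6 libraries numbered 2 and 3. SUSD6, a sushi domain protein, had the lowest p of the members in the blocked edgeR fit. It stood at 20.5, 25.5 and 19.6 CPM in control, 19.5, 21.4 and 18.4 with shRNA-143 and 26.4, 32.1 and 26.5 with shRNA-146. All 3 shRNA-146 libraries were above all libraries of the other groups. The blocked difference between the shRNAs was 0.52 ± 0.13, adjusted p = 0.102. The 95% interval of the difference between the shRNAs lay within 2-fold either way in the blocked fit for 23 of 30 members (76.7%), near the 73.8% of all genes.

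Without any model, few members separated the groups. In CPM, 3 of 30 members with shRNA-143 had no overlap with control, against 15.2% of all genes: ANKRA2, GDF15 and ZMAT3, all higher. With shRNA-146 it was 4 of 30 against 14.7% of all genes, ACER2 and SUSD6 higher and GADD45A and PHLDA3 lower. Library 1 was the highest of its group in all 3 groups for 13 of 30 members (43.3%, and 25.9% of all genes), MDM2, CCNG1, FAS, TNFRSF10B, RPS27L, TRIAP1 and PPM1D among them, and the lowest in all 3 for 5 (16.7%, and 28.4% of all genes), ASCC3, DDB2, MDM4, POLH and XPC. What the library number stands for is not stated in the labels, and its part in the members' levels was not tested.

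Other p53 target genes, not among the 32, gave 6 calls for the mean with the block. Of 42 such genes 34 were tested. Without the block 0 passed in each comparison in edgeR. An unadjusted edgeR p under 0.05 was reached by 2, 5, 7 and 2, against 6.8%, 8.81%, 9.34% and 3.75% of all genes. DESeq2 without the block called 2, 3, 1 and 0 of them, beside 151, 162, 203 and 89 of all genes. In edgeR with the block 1 rose and 1 fell with shRNA-143, 4 rose with shRNA-146, and 5 rose and 1 fell for the mean. Another 2 calls were higher with shRNA-146 than with shRNA-143. Of all genes 3.17%, 4.42%, 5.74% and 1.2% were called in these comparisons. Their median log2 difference of the mean was 0.147, beside 0.050 for the members and 0.008 for all genes.

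CDKN1A, the p21 inhibitor of cyclin-dependent kinases and the standard p53 reporter gene, had the highest level per length in that list. It stood at 49.4, 37.5 and 32.03 CPM in control, at 78.7, 43.9 and 40.3 in shRNA-143 libraries and 90.3, 120.3 and 108.2 in shRNA-146 libraries. All shRNA-146 libraries were above all others. With the block CDKN1A rose with shRNA-146 (1.47 ± 0.22, adjusted p = 0.00764), whereas it was at 0.43 ± 0.22 with shRNA-143, adjusted p = 0.287. The difference between the shRNAs was 1.04 ± 0.22, adjusted p = 0.04998, at the edge of the threshold, and without the block CDKN1A passed in no comparison in edgeR (adjusted p = 0.217 with shRNA-146) and was called with shRNA-146 in DESeq2. The blocked call with shRNA-146 was lost when control library 2 (adjusted p = 0.0727) or 3 (0.0698) was left out.

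BTG2, an antiproliferative cofactor of mRNA decay, stood at 2.24, 1.97 and 1.93 CPM in control, 5.79, 3.69 and 3.10 with shRNA-143 and 5.18, 5.15 and 5.19 with shRNA-146. Both knockdown groups were wholly above control, and with the block BTG2 rose with shRNA-143 (1.0 ± 0.22, adjusted p = 0.0377) and with shRNA-146 (1.35 ± 0.22, adjusted p = 0.0108). PERP, a membrane protein of cell junctions and apoptosis, was at 44.6, 30.8 and 39.0 CPM in control, 19.1, 12.5 and 10.01 with shRNA-143 and 51.2, 26.4 and 20.7 with shRNA-146. All shRNA-143 libraries were below all controls, and PERP fell there (-1.51 ± 0.20, adjusted p = 0.00420) and differed between the shRNAs (1.20 ± 0.20, adjusted p = 0.0156). APAF1, the core of the apoptosome, and E2F7, a repressor of E2F target genes, rose with shRNA-146 by 0.53 and 0.80 on the log2 scale, and STEAP3, a ferrireductase, rose for the mean by 0.61. With 1 library left out and the block, PERP kept its call with shRNA-143 in 9 of 9 omissions. BTG2 kept its own with shRNA-146 in 6 of 9, all but those of the controls (adjusted p = 0.0610 to 0.0785), and with shRNA-143 in 2 of 9, those of shRNA-146 libraries 1 and 3. APAF1 and E2F7 kept theirs with shRNA-146 in 1 and 4 of 9, and STEAP3 for the mean in 3 of 9. BLOC1S2, second in level per length, was at -0.26 ± 0.13 for the mean, adjusted p = 0.234. The authors' deposited table gave CDKN1A 1.43 (adjusted p = 0.00267) and BTG2 1.35 (0.00551) with shRNA-146, and PERP -1.45 (0.00158) with shRNA-143.

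BAX, BBC3 and PMAIP1, apoptotic targets of p53 picked after their values were seen, did not pass in any of these comparisons, unlike PERP and APAF1. BAX, the mitochondrial pore former, was at -0.27 ± 0.17 for the mean with the block, BBC3, which encodes PUMA, at -0.10 ± 0.34, and PMAIP1, which encodes NOXA, at 0.26 ± 0.13, with adjusted p-values of 0.345, 0.881 and 0.243. Of 17 tested regulators of p53, HIPK2, a kinase that phosphorylates p53, was the one that rose with the block (0.76 ± 0.19 for the mean, adjusted p = 0.0444, kept in 1 of 9 omissions of 1 library). That was 5.88% of these regulators for the mean, near the 5.74% of all genes. RPL5 and NPM1, highest in level per length, were at -0.31 and -0.36 without passing.

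Upstream of p53, 30 genes of DNA damage signalling were tested, and 1 passed with the block. That share was 3.33% with shRNA-143 and for the mean, against 3.17% and 5.74% of all genes. H2AX, the histone variant phosphorylated around DNA breaks, stood at 253.8, 268.5 and 374.9 CPM in control, 98.7, 117.6 and 111.0 with shRNA-143 and 92.5, 230.7 and 247.9 with shRNA-146. All knockdown libraries were below all controls, and H2AX fell with shRNA-143 (-1.43 ± 0.23, adjusted p = 0.0112) and for the mean (-1.08 ± 0.19, adjusted p = 0.0132). The call with shRNA-143 was lost without control library 1 or 3 or shRNA-143 library 2 or 3, at adjusted p-values of 0.0593 to 0.0964, and without the block in edgeR (0.306), where DESeq2 called it. The authors' deposited table gave H2AX -1.43 with shRNA-143, adjusted p = 3e-06. The kinases ATM, ATR and CHEK1 were at 0.25, 0.18 and -0.20 for the mean and did not pass, nor did XRCC6 and XRCC5, the Ku subunits with the highest levels per length in that list (-0.18 and -0.06).

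Of 22 tested genes of nucleotide excision repair and its partners, CUL4A passed with the block. The share called was 4.55% with shRNA-143, for the mean and between the shRNAs, against 3.17%, 5.74% and 1.2% of all genes. CUL4A, the cullin scaffold of the ubiquitin ligase that uses DDB2 as its damage receptor, stood at 109.6, 104.0 and 104.5 CPM in control, 46.6, 45.5 and 45.6 with shRNA-143 and 123.0, 97.3 and 91.5 with shRNA-146. All shRNA-143 libraries were below all others. CUL4A fell with shRNA-143 (-1.21 ± 0.13, adjusted p = 0.00191), was at -0.04 ± 0.13 with shRNA-146, and differed between the shRNAs (1.17 ± 0.13, adjusted p = 0.00217). The call with shRNA-143 was kept in all 9 omissions of 1 library with the block, and missed the threshold without the block in edgeR (adjusted p = 0.0566), where DESeq2 called it. The authors' deposited table gave CUL4A -1.19 with shRNA-143, adjusted p = 8.24e-08. PCNA and RPA1, the highest of that list in level per length, were at -0.39 and -0.03 for the mean and did not pass.

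Of 19 tested genes of the ATF4 and CHOP stress response, a pathway also known to raise GDF15, 3 rose and 0 fell for the mean with the block. That was 15.8% of them, against 5.74% of all genes. In that fit 12 of the 19 were above 0 and 7 below it, with 63.2% above 0 against 51% of all genes. Whether this pathway had a part in the level of GDF15 was not tested. DDIT3, which encodes CHOP, was at 12.9, 11.7 and 12.2 CPM in control, 17.2, 16.3 and 14.9 with shRNA-143 and 18.5, 17.5 and 19.3 with shRNA-146, so both knockdown groups were wholly above control (0.49 ± 0.12 for the mean, adjusted p = 0.0449). MARS covers 27.2% of the exon bases of DDIT3 on the other strand, so its counts are uncertain. SLC7A11, the cystine transporter, rose by 0.92 ± 0.15 and VLDLR, a lipoprotein receptor, by 0.95 ± 0.15 on the log2 scale, with adjusted p-values of 0.0104 and 0.00936. With 1 library left out and the block, DDIT3 kept its call for the mean in 1 of 9 omissions, SLC7A11 and VLDLR in 7 of 9 each. HSPA5 and ATF4 itself, the highest in level per length, were at -0.02 and -0.26 and did not pass. In the lists of p53 regulators, DNA damage signalling, excision repair and stress response, edgeR without the block called 0 genes. An unadjusted p under 0.05 was reached there for the mean by 0, 1, 1 and 4 genes, against 9.34% of all genes. DESeq2 without the block called H2AX, CUL4A, DDIT3 and VLDLR in at least 1 comparison, and the authors' deposited table gave VLDLR an adjusted p of 0.0433 with shRNA-143 and 0.0361 with shRNA-146.

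**Figure D4:**
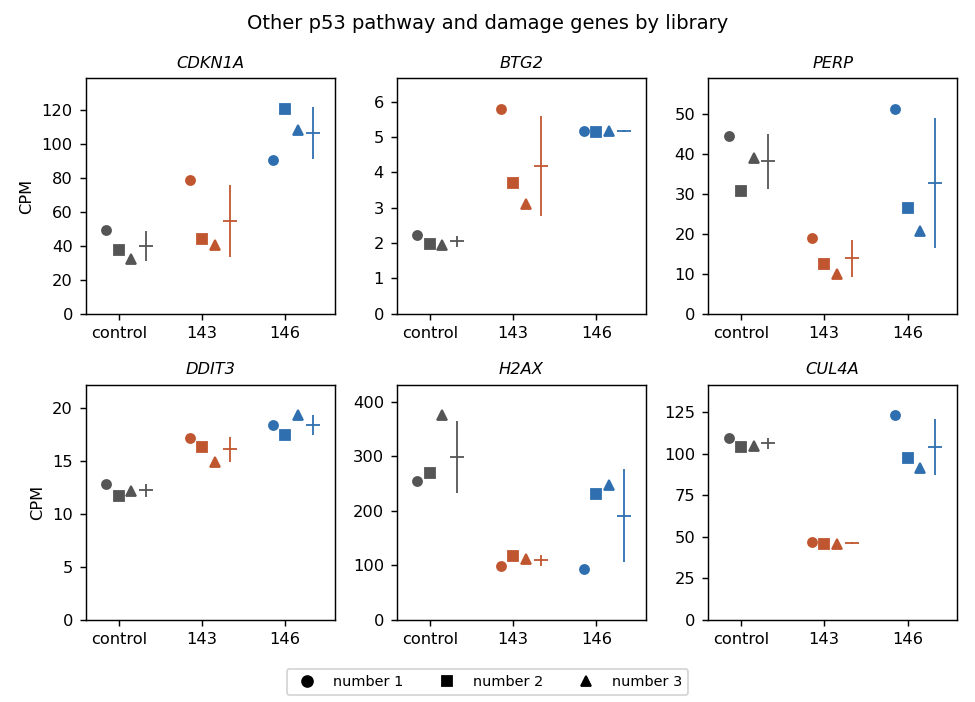
CPM of CDKN1A, BTG2, PERP, DDIT3, H2AX and CUL4A, which are not among the 32 members, in each library, from 0, with a marker shape for each library number and the mean ± SD of each group of 3. CDKN1A is highest with shRNA-146, BTG2 is higher with both shRNAs, PERP and CUL4A are lowest with shRNA-143, and DDIT3 is higher with both shRNAs.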

How the data were processed

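Polyadenylated RNA of 9 THP-1 libraries, 3 in each of 3 groups, was measured. The authors deposited raw counts per gene, gene lengths, and for each shRNA a comparison table with their log2 fold changes and p-values, in which the test is not named. Per the submitters' processing notes, the tools included fastp, STAR 2.5, featureCounts and DESeq2, and the build was hg38. The strand setting of the counting is not stated there. The deposited normalized signal, FPKM and gene length columns were not used. Every gene identifier is in GENCODE release 29, from which positions, exon lengths and overlaps were taken.

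Counts were fitted with edgeR 4.0.16 in R 4.3.3 (TMM scaling, filterByExpr, glmQLFit robust, glmQLFTest), 3 group means over 9 libraries, Benjamini-Hochberg adjustment over 14975 genes, threshold 0.05. Log2 fold changes are given with SE. CPM uses TMM-scaled library sizes and TPM the exon bases of each gene in GENCODE release 29. DESeq2 1.42.0, limma-voom (limma 3.58.1), other scalings, no filter, length offsets and omitted libraries were alternatives, and the scripts were tested on simulated data. The members came from a list of names that used no measured value of this series. The other lists were written by hand from textbook knowledge. Earlier results of these data were, however, known when the members and lists were chosen.

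Library totals of 40047459 to 44669709 counts leave counting error small for most members, and those under about 1 CPM are imprecise. Same-numbered libraries deviated together from their group means, with a correlation of 0.252 to 0.758 over all 9 same-numbered pairs and -0.678 to 0.535 over pairs of different number, so results of a fit that adds the library number as a block stand beside those of the fit that lacks it. The series' text calls the replicates biological. Since no label ties them to separate cultures, the p-values may reflect technical spread between the libraries alone. All 32 members are named. Values in every library are given for members that passed in either fit of 9 libraries and for the member with the highest TPM in each role group, and of the other lists for genes that passed, some by their fold change alone, and the top 2 by TPM are named. ZMAT3, GDF15, RPS27L, SUSD6, BAX, BBC3, PMAIP1, ATM, ATR and CHEK1 were added after their values were seen. One gene of the list of p53 regulators is not reported here.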

Additional observations from a re-analysis of the deposited data

Results flagged for a closer look

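None of the 32 members is listed here. Of the other lists, 3 genes differed between the 2 shRNAs in the blocked edgeR fit, tested as shRNA-146 against shRNA-143. CUL4A was 1.17 higher with shRNA-146 on the log2 scale, and stayed past the threshold in all 9 omissions of 1 library (highest adjusted p = 0.0323), but not without the block in edgeR (adjusted p = 0.0814), where DESeq2 called it. PERP was 1.20 higher, and missed the threshold without the block (adjusted p = 0.765) and in 4 of the 9 omissions: those of shRNA-143 library 1, 2 or 3 and of shRNA-146 library 2 (adjusted p = 0.0724 to 0.113). CDKN1A was 1.04 higher, just inside the threshold, and missed it without the block, with median-of-ratios scaling (adjusted p = 0.0559), with library size scaling (0.0932), in limma-voom (0.05001) and in 8 of 9 omissions of 1 library, the exception being shRNA-146 library 1. In the 6 libraries numbered 2 and 3, without the block, all 3 differences passed, at 1.05, 1.06 and 1.44.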

How the results depend on the processing

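Without the block, 0 members were called in all 4 comparisons in DESeq2, limma-voom, the other scalings, without the filter, with length offsets alone and with any 1 library left out. The exceptions were the 6 libraries numbered 2 and 3, with 1 member for shRNA-143, 2 for shRNA-146 and 4 for the mean, and, for the mean, the replicate block with 2 and the replicate block with length offsets with 3 (POLH, GDF15 and RPS27L). In those 6 libraries without the block, 3.89%, 6.28% and 10.1% of all genes were called. With the replicate block, the counts for shRNA-143, shRNA-146 and the mean were 3, 4 and 4 with no filter on low counts, and 4, 4 and 5 in DESeq2. They were 3, 3 and 5 in the 6 libraries numbered 2 and 3, a setting chosen after seeing the data, where 10.4%, 13.9% and 19.1% of all genes were called. Calls among all genes with shRNA-143 and shRNA-146 rose as well, from 474 and 662 in the blocked edgeR fit. They were 1240 and 1653 with no filter, and 1001 and 1400 in DESeq2. Library size scaling gave 1 for shRNA-143, and for the mean POLH and ZMAT3, 2 up and 0 down against 1 up and 1 down, while the median of all genes moved from 0.008 to 0.123. Leaving out 1 library with the block gave 0 to 4 members for shRNA-143, 0 to 3 for shRNA-146, 0 to 5 for the mean and 0 to 1 between the shRNAs. The highest count each time came without shRNA-146 library 1. That omission also raised the calls among all genes, with shRNA-143 from 474 to 2099. Between the shRNAs, DESeq2 and the 6 libraries each called 1 member with the block, SUSD6. In the 6 libraries with the block 2.1% of all genes were called there. The cause was not tested, apart from what the settings change by construction. Of the single members' log2 differences, no called value changed sign. Depth limits TIGAR, PLK2, PHLDA3, TNFRSF10C and SPATA18, with 30 counts or fewer per library.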
